A study of Mus musculus with 6 samples.

Results

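Interleukins, their receptors and the SOCS proteins that restrain their signalling were examined in biliary epithelial cells, which form the lining of the intrahepatic bile ducts. Members were all genes whose symbol begins with Il and a number, together with Lif, Lifr, Osm, Osmr, Socs1 to Socs7 and Cish; Il1rn was left out. The rule gave 74 of the 25302 genes in the table: 25 ligands, 37 receptor chains, 8 intracellular inhibitors, 2 binding proteins, 1 enzyme (Il4i1) and 1 antisense RNA (Il1bos). It used symbols and no measured value. RNA was sequenced from 3 mouse samples labelled Control, of genotype Sox9fl/fl, and 3 labelled Sox9cKO, of genotype Sox9fl/fl:AlbCre+/-. Both groups therefore carried floxed alleles of Sox9, the gene of a transcription factor of the bile duct lineage. The AlbCre transgene, Cre recombinase under the albumin promoter, was present in Sox9cKO and absent from Control, so loss of Sox9 and the presence of the transgene cannot be told apart. The albumin promoter is active in hepatocytes and in the fetal progenitors that give rise to both hepatocytes and bile duct cells. Age, sex and the way the cells were isolated are not given in the sources used here.

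Interleukins are secreted proteins that carry signals between cells and act through receptor chains on the target cell. Receptors of the IL-6 and IL-12 families and of the common gamma chain group activate JAK kinases and STAT transcription factors. SOCS proteins and CISH, made in response to STAT activity, then shut the receptor complex down. Receptors of the IL-1 family signal instead through MYD88 and IRAK kinases, and those of the IL-17 family through the adaptor encoded by Traf3ip2, both towards NF-kappaB. Bile duct cells are known as a source of IL-6 in injured liver and as responders to IL-6, IL-17, IL-22 and IL-33.

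The promoters of 6 members are shown. Il6ra and Il17rb passed the main test used below. Il23a passed as well, but no promoter window was matched for it. Il6 and Il22ra1 did not pass the main test but did so with a block for the replicate number. Socs3 and Cish hold a match in letters to the STAT element. Through elements of this kind STAT proteins are known to act on their own inhibitors. RefSeq promoter windows on GRCm38.p6 were matched for 53 of the 74 members, with 65 windows of 300 bases, each from 250 bases before to 50 after a transcription start. Sequences run 5′ to 3′ on the transcribed strand, and capitals mark a match to 1 of 3 motifs searched on both strands: the SOX core ACAAT, which reads ATTGT on the other strand, the STAT element TTCNNNGAA and the AP-1 element TGANTCA.
Il6ra (chr3:89913197-89913446, minus strand): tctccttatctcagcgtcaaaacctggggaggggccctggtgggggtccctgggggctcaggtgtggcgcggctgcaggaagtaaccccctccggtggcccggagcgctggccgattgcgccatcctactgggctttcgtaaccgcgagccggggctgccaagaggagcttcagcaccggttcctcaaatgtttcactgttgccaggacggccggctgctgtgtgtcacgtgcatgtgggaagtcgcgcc
Il17rb (chr14:30008897-30009146, minus strand): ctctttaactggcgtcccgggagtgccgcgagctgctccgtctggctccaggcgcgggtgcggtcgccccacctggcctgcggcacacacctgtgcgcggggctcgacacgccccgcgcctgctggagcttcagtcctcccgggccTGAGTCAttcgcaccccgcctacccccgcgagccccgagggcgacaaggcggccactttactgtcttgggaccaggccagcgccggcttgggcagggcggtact
Il6 (chr5:30012864-30013113, plus strand): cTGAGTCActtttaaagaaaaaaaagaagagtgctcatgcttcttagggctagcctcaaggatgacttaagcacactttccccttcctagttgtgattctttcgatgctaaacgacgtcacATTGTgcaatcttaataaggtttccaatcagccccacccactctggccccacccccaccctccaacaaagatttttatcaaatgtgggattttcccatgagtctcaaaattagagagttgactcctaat
Il22ra1 (chr4:135727909-135728158, plus strand): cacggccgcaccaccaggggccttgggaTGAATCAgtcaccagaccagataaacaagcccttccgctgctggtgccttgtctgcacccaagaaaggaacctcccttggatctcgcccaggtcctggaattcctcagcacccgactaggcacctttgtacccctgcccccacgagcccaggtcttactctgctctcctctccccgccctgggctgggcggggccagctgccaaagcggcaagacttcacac
Socs3 (chr11:117969477-117969556, minus strand): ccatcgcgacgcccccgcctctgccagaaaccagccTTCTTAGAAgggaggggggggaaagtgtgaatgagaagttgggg
Cish (chr9:107296619-107296683, plus strand): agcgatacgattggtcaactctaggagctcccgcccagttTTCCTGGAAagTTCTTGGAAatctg
The Socs3 stretch lies within the 250 bases before the start, and the Cish stretch runs from 40 bases before to 25 after it. The first 4 cover the 250 bases before the start, and that of Il6ra holds none of the 3 letter patterns. The Il17rb and Il22ra1 stretches each hold 1 AP-1 match, and that of Il6 holds 1 AP-1 match and 1 SOX core. The 2 STAT matches of Cish lie after the start. Its window of 300 bases also holds 1 SOX core, 192 bases before the start and outside the stretch shown.

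Across all 65 windows of members, 15 (23.1%) held the SOX core, against 31% of the 32851 windows of all genes. The STAT element was in 10 (15.4%), against 8.3%. The AP-1 element was in 11 (16.9%), against 7.81%. Matches of different motifs did not overlap in these windows. A match is a stretch of letters and was not measured as a binding site.

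Between 11883496 and 16191990 reads were assigned to genes per sample, and between 23743 and 25084 genes had at least 1 read. All levels below are normalized reads, that is, reads divided by the size factor of the sample. Sox9 itself was at 6182 ± 127 in Control and 3289 ± 108 in Sox9cKO (mean ± SD, n = 3 each), a log2 change of -0.91 with an adjusted p of 0.00501 (limma). Which exons the floxed alleles remove is not given in the sources used here, so the remaining reads may come from transcripts that lack them. The 10 biliary markers, such as Krt19 and Epcam, were all detected, and summed to between 84899 and 127414 in Control and between 70908 and 98788 in Sox9cKO. Their median log2 change was -0.15. At an adjusted p under 0.05 in limma, 1 of them was higher and 0 lower, where 2.97% of all genes passed. With a block for the replicate number 1 was higher and 3 lower, where 8.05% of all genes passed. Markers of other cell types were present too. The samples numbered 3 stood apart in both groups, since the 10 endothelial markers summed to 12708, 40669 and 1756 in Control replicates 1 to 3 and to 31958, 41905 and 6557 in Sox9cKO replicates 1 to 3. Hepatocyte markers summed to between 18916 and 30040 in Control and between 22931 and 37110 in Sox9cKO. Mesenchymal markers summed to between 2248 and 2964 in Control and between 2450 and 5276 in Sox9cKO. For leukocytes, 12 of 20 listed markers were in the table, and their sum was 1111 to 1318 in Control and 1556 to 1876 in Sox9cKO. Most of that sum was Csf1r. Of the defining leukocyte genes, Ptprc (CD45) was at 37.0, 36.2 and 19.6 in Control and 16.9, 12.3 and 1.13 in Sox9cKO. In bulk RNA, fewer cells of a type and less RNA per cell cannot be told apart.

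Il6ra and Il23a were higher in Sox9cKO than in Control, and Il17rb was lower. These were the 3 calls among the 52 members that had a mean of at least 10 normalized reads and were tested (limma on log2(value + 1), Benjamini-Hochberg adjusted p under 0.05 over all genes). That is 5.77% of the tested members, against 2.97% of all 17153 genes tested. In the higher direction 2 members were called, where 2.03% of all genes were. In the lower direction 1 member was called, where 0.939% of all genes were. The log2 change was positive for 28 tested members and negative for 24, with a median of 0.10, beside a median of 0.04 over all genes tested; without Control replicate 3 the members' median was -0.12. When the replicate number of the labels was added as a block, 8 members passed, 15.4% against 8.05% of all genes. Of these 6 were higher, where 5.06% of all genes were, and 2 lower, where 2.99% were. The further 5 members were Il34, Socs2, Il22ra1, Il6 and Il12rb1. Each of the 3 calls passed in 1 of the 6 fits that left out 1 sample and was lost in the other 5, with adjusted p between 0.0251 and 0.127 for Il6ra, between 0.0399 and 0.150 for Il23a and between 0.0445 and 0.126 for Il17rb. Without both samples numbered 3, an alternative added after the data were seen, 0 members passed; 52 genes in all did.

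**Figure D1:**
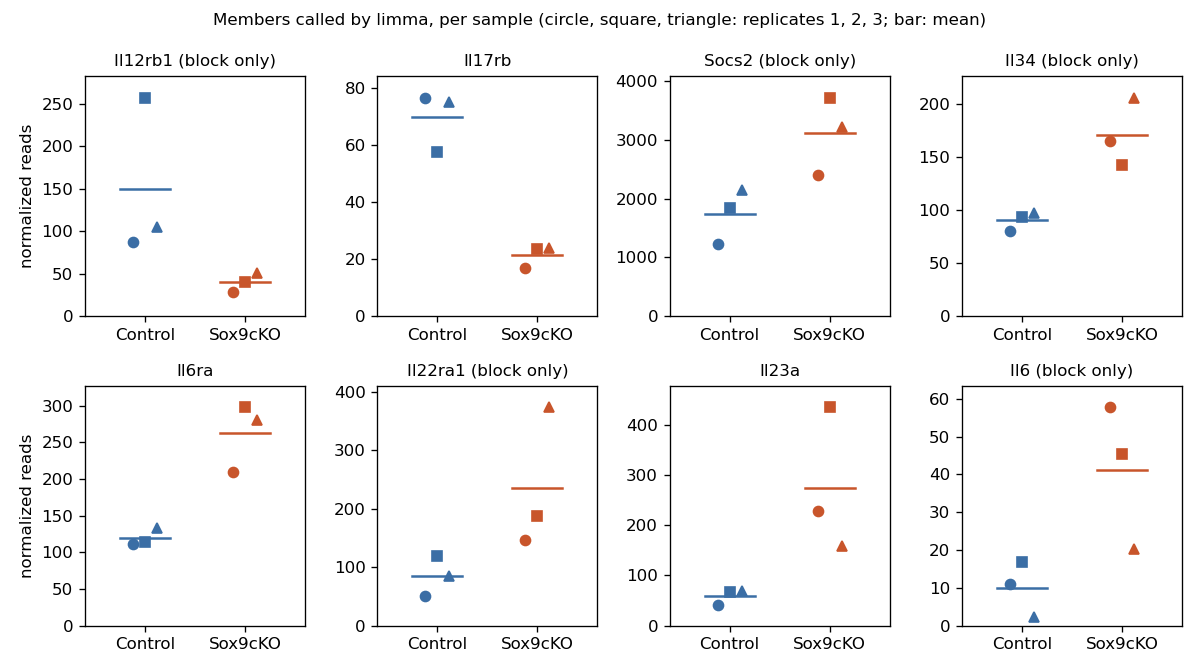
Normalized reads (vertical axis, from 0) of the 8 members that passed the threshold with or without the replicate block, in the Control and Sox9cKO samples. Points are samples, with a marker shape for each replicate number, and horizontal bars are group means; in each of the 8 panels the groups do not overlap.

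The IL-6 family signals through a shared chain, gp130, encoded by Il6st, and 9 of its 13 members were tested. Of these, 1 rose and 0 fell, where 2.97% of all genes were called. Il6ra (ENSMUSG00000027947), the chain that binds IL-6 and brings it to gp130, had 111, 114 and 132 normalized reads in Control and 209, 298 and 281 in Sox9cKO. All Sox9cKO samples thus lay above all Control samples. The means were 119 ± 11.6 and 262 ± 47.1 (SD, n = 3 each), a 2.20-fold difference, with a log2 change of 1.12 (SE 0.19) and an adjusted p of 0.0275 by limma. After quantile normalization the same gene was at 1.01 with an adjusted p of 0.0591.

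Its ligand Il6 (ENSMUSG00000025746) was a low-level transcript, with 10.9, 16.7 and 2.30 normalized reads in Control and 57.7, 45.4 and 20.4 in Sox9cKO. The groups did not overlap, and the sample numbered 3 was the lowest of each. The log2 change was 2.13 (SE 0.69) with an adjusted p of 0.171 (limma), and 0.0231 with the replicate block. At most 58 reads of Il6 were counted in a sample.

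Il6st, which encodes gp130, and Lif had the most normalized reads of the family. Il6st had 8277, 9773 and 7930.0 normalized reads in Control and 10945, 11837 and 9652 in Sox9cKO, so the lowest Sox9cKO sample lay below the highest Control sample (log2 change 0.32, SE 0.13, adjusted p = 0.269 by limma). Lif, the ligand of the LIF receptor, had 6029, 8967 and 6961 in Control and 9657, 10330.3 and 7660 in Sox9cKO. These groups overlapped as well (0.34, SE 0.18, adjusted p = 0.394 by limma). Lifr, which pairs with gp130 to receive LIF, followed the replicate number rather than the genotype: 3636, 4998 and 1941 in Control and 3822, 5603 and 1635 in Sox9cKO. Its log2 difference was -0.004 (SE 0.50).

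Osmr, the chain for oncostatin M, was at 2602, 3207 and 3047 in Control and 2188, 3951 and 3464 in Sox9cKO. Il11, a ligand made by stromal and epithelial cells, was at 54.1 ± 11.1 and 53.9 ± 11.6 (SD, n = 3 each). Its receptor chain Il11ra1 was at 175 ± 63.4 and 136 ± 47.4, and reads of close copies of this gene may be shared with it. Il27ra, the IL-27 receptor chain, ranged from 4.61 to 38.1 in Control and from 11.3 to 56.7 in Sox9cKO. None of these 4 passed the test, the smallest adjusted p by limma among them being 0.626, for Il27ra.

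Of the IL-12 family, which holds IL-12, IL-23 and their receptors, 2 of 4 members were tested, and they differed in opposite directions. Il23a (ENSMUSG00000025383), the p19 subunit that makes IL-23 specific, had 41.2, 66.8 and 69.1 normalized reads in Control and 228, 435 and 158 in Sox9cKO. The lowest Sox9cKO sample was above the highest Control sample, and the Sox9cKO samples differed widely among themselves. Means were 59.0 ± 15.5 and 274 ± 144 (SD, n = 3 each), a 4.64-fold difference, with a log2 change of 2.10 (SE 0.39) and an adjusted p of 0.0379 by limma. Without the intensity trend in the fit the adjusted p was 0.0703.

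Il12rb1 (ENSMUSG00000000791), the receptor chain that IL-12 and IL-23 share, had 87.4, 257 and 105 in Control and 27.9, 39.7 and 50.9 in Sox9cKO. Every Sox9cKO sample lay below every Control sample, and Control replicate 2 was far above the other two. The log2 change was -1.77 (SE 0.44), with an adjusted p of 0.0907 by limma and 0.0252 with the replicate block. The leukocyte marker Itgam was also highest in Control replicate 2, at 145.7, and lay between 15.9 and 39.7 in the other 5 samples; its part in the Il12rb1 values was not tested. Il12b and Il23r, the partners of Il23a and Il12rb1, were not analysed here.

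In the IL-17 family 1 of 6 tested members fell and 0 rose, where 2.97% of all genes were called. Il17rb (ENSMUSG00000015966), the chain that binds IL-17B and IL-25, had 76.5, 57.5 and 74.9 normalized reads in Control and 16.9, 23.6 and 23.8 in Sox9cKO. The groups were far apart relative to their spread. Means were 69.6 ± 10.5 and 21.4 ± 3.92 (SD, n = 3 each), so that Sox9cKO held 0.308 of the Control level, with a log2 change of -1.66 (SE 0.27) and an adjusted p of 0.0222 by limma. Between 17 and 91 reads per sample stood behind these values.

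The partner chain Il17ra, shared by several IL-17 receptors, had 637, 740 and 803 in Control and 564, 664 and 549 in Sox9cKO (log2 change -0.29, SE 0.14, adjusted p = 0.344 by limma). The lowest Control sample lay within the Sox9cKO range. The remaining chains were Il17rc (0.33), Il17rd (0.23) and Il17re (-0.47), in log2 change, and none of these 3 passed. Il17re, the receptor of the epithelial ligand IL-17C, was at 419, 269 and 342 in Control and 367, 146 and 267 in Sox9cKO. Il17c itself was at 29.2 ± 7.76 and 23.6 ± 2.23 (SD, n = 3 each).

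IL-10 family receptors were represented by 3 tested genes, and the 4 ligands of the family were all below the filter. Il22ra1 (ENSMUSG00000037157), the chain that gives epithelial cells their response to IL-22, had 51.3, 119.7 and 84.1 normalized reads in Control and 147, 188 and 374 in Sox9cKO. No values overlapped, and Sox9cKO replicate 3 was the highest of the 6. The means of 85.0 ± 34.2 and 236 ± 121 (SD, n = 3 each) differed 2.78-fold, a log2 change of 1.43 (SE 0.42), with an adjusted p of 0.137 by limma and 0.0314 with the replicate block. Il10rb, its partner chain, was at 249, 293 and 165 in Control and 257, 335 and 302 in Sox9cKO (0.37, adjusted p = 0.477 by limma). Il20rb, a chain for IL-19, IL-20 and IL-24, ranged from 52.1 to 104 in Control and from 35.8 to 124 in Sox9cKO.

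None of the 10 tested members of the IL-1 family passed the threshold in limma, with or without the block. edgeR and DESeq2 gave 0 as well. An unadjusted p under 0.05 in limma was found for 2, and for 3047 of all 17153 genes tested. Il1r1, the signalling receptor for IL-1, had 772, 1018 and 550 normalized reads in Control and 866, 1064 and 877 in Sox9cKO (log2 change 0.30, SE 0.23). Il1a, the IL-1 ligand with the most reads, had 471, 1129.5 and 106 in Control and 867, 914 and 295 in Sox9cKO. The sample numbered 3 was lowest in both groups, and the log2 difference of 0.68 had an SE of 0.84. Il1b was at 16.3 ± 8.04 and 12.1 ± 6.89 (SD, n = 3 each); whether counting used the strand is not given in the sources used here, so its reads cannot be told apart from those of the antisense gene Il1bos.

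Il33, an alarmin held in the nucleus until cells are damaged, had 48.8, 42.7 and 25.3 in Control and 67.7, 76.5 and 63.4 in Sox9cKO. The groups did not overlap, and the log2 change of 0.86 (SE 0.30) had an adjusted p of 0.191 by limma. Its receptor Il1rl1 was below the filter, with 15 reads over all samples. The co-receptor Il1rap was at 396, 245 and 370 in Control and 201, 246 and 288 in Sox9cKO (-0.44, adjusted p = 0.373 by limma). Il18bp, the soluble protein that traps IL-18, was at 517 ± 102 and 411 ± 113, and Il18 itself at 48.9 ± 16.4 and 56.5 ± 10.2 (SD, n = 3 each). Il36a was at 0, 3.71 and 10.4 in Control and 17.9, 34.0 and 9.06 in Sox9cKO, a difference of 2.32 (SE 0.93) that overlapped between groups.

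Among the 14 members of the common gamma chain, IL-3 and IL-13 group, 11 were tested. Of these, 0 passed in limma, with or without the block, or in edgeR and DESeq2. In limma 3 had an unadjusted p under 0.05, as did 3047 of all 17153 genes tested. Il13ra1, which pairs with Il4ra to receive IL-4 and IL-13 on epithelial cells, had 1505, 1512 and 1546 normalized reads in Control and 2097, 1825 and 1888 in Sox9cKO. The Control samples were tight and all below the Sox9cKO samples, and the log2 change of 0.35 (SE 0.10) had an adjusted p of 0.145 by limma. Il4ra had 1544, 2556 and 1328 in Control and 2506, 1717 and 1206 in Sox9cKO, the same mean in both groups within 1 read (1809.5 and 1809.7). Il15ra, which presents IL-15 to neighbouring cells, was at 223 ± 33.8 and 179 ± 33.9 (SD, n = 3 each), and Il15 at 39.6 ± 11.9 and 26.0 ± 2.58.

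Several receptor chains of this group are best known from lymphocytes, eosinophils and other leukocytes. Il9r had 17.7, 26.0 and 9.22 in Control and 0, 5.67 and 4.53 in Sox9cKO, without overlap; the log2 change was -2.37 (SE 0.81) and the adjusted p 0.190 by limma. Il2rg, the common gamma chain itself, had 10.9, 39.9 and 2.30 in Control and 22.9, 31.2 and 9.06 in Sox9cKO. Il21r was at 13.4, 61.3 and 8.06 in Control and 16.9, 46.3 and 5.66 in Sox9cKO. Both were highest in replicate 2 and lowest in replicate 3 of each group. Il5ra was at 9.25, 31.6 and 4.61 in Control and 81.6, 7.56 and 15.8 in Sox9cKO, where 1 sample held most of the reads. Il3ra was at 40.1 ± 12.8 and 67.1 ± 9.35 (SD, n = 3 each) without overlap (adjusted p = 0.224 by limma). The 8 leukocyte markers tested had a median log2 change of -0.72, with Csf1r higher (0.92, adjusted p = 0.0142 by limma) and the other 7 negative; their part in these values was not tested.

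All 8 intracellular inhibitors were tested, and 0 passed in limma or in edgeR, both without the block. In limma 2 had an unadjusted p under 0.05, as did 3047 of all 17153 genes tested. DESeq2 called 1, Socs2. Socs2 (ENSMUSG00000020027), a brake on growth hormone and STAT5 signalling, had 1224, 1838 and 2138 normalized reads in Control and 2406, 3718 and 3213 in Sox9cKO. The groups did not overlap, and means of 1733 ± 466 and 3112 ± 662 (SD, n = 3 each) differed 1.80-fold. The log2 change of 0.86 (SE 0.24) had an adjusted p of 0.125 by limma and of 0.00938 with the replicate block. Each Sox9cKO sample was above the Control sample of its number. The growth hormone receptor Ghr, from the list of related receptors given further on, also rose. A link between the Socs2 and Ghr values was not tested.

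Socs3, the main brake on gp130, varied with the replicate number: 1721, 3118 and 873 in Control and 3236, 3163 and 903 in Sox9cKO. Its log2 difference was 0.33 (SE 0.61, adjusted p = 0.831 by limma), and with the replicate block the SE was 0.18 and the adjusted p 0.314. Socs1 was likewise lowest in replicate 3 of each group, at 134, 211 and 112 in Control and 177, 188 and 81.5 in Sox9cKO. Cish was steadier, at 1095 ± 136 and 1029 ± 42.3 (SD, n = 3 each). Socs5 was at 1626, 1293 and 1718 in Control and 1185, 1298 and 1015 in Sox9cKO (-0.40, adjusted p = 0.232 by limma), with Control replicate 2 inside the Sox9cKO range. Socs4, Socs6 and Socs7 differed by -0.14, 0.20 and -0.07 on the log2 scale.

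Outside these families, Il34 (ENSMUSG00000031750), a ligand of the receptor encoded by Csf1r, had 80.7, 93.7 and 96.8 normalized reads in Control and 165, 143 and 206 in Sox9cKO. The groups did not overlap. Means of 90.4 ± 8.54 and 171 ± 32.1 (SD, n = 3 each) differed 1.89-fold, a log2 change of 0.90 (SE 0.20), with an adjusted p of 0.0652 by limma and 0.0326 with the replicate block. Its receptor Csf1r rose from 780, 705 and 797 in Control to 1266, 1446 and 1638 in Sox9cKO. Il16, a chemoattractant for CD4 cells, was at 178 ± 74.8 and 178 ± 17.6 (SD, n = 3 each). Il4i1, an amino acid oxidase and not an interleukin, was at 39.0 ± 15.9 and 29.0 ± 8.25.

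**Figure D2:**
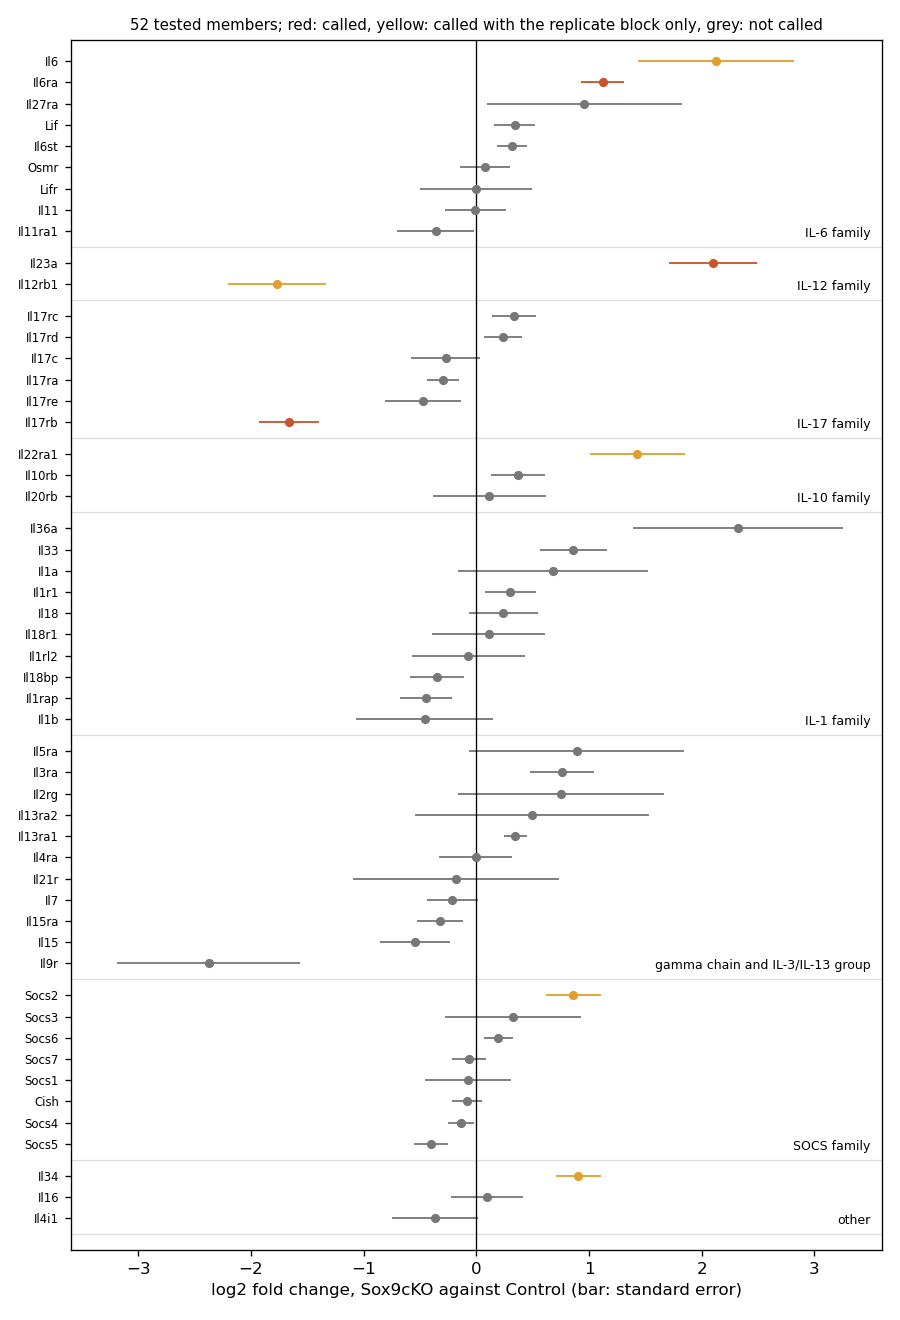
Log2 change of Sox9cKO against Control for the 52 tested members, grouped by family, with the standard error from limma as a bar; markers show whether a member passed without the block, with the replicate block, or not at all. Il6ra and Il23a stand to the right and Il17rb to the left, and the members of the IL-1 and common gamma chain groups were not called.

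Counting members whose groups did not overlap gave 14 of 52 (26.9%), close to the 24.2% of all genes tested. They were Il6ra, Il23a, Il34, Socs2, Il22ra1, Il13ra1, Il6, Il33 and Il3ra in the higher direction, 9 in all, where 13.4% of all genes were. In the lower direction they were Il17rb, Il12rb1, Il9r, Socs4 and Il7, 5 in all, where 10.8% of all genes were. By role, 14 tested ligands had a median log2 change of 0.29, with 1 called, and 28 receptor chains a median of 0.11, with 2 called. Over all genes tested the median was 0.04, and 2.97% were called. edgeR's quasi-likelihood test on the recovered reads called the same 3 members (adjusted p of 0.0347 for Il6ra, 0.0418 for Il23a and 0.0210 for Il17rb), and 2.86% of all genes. With the block edgeR called the same 8 members as limma with the block, and 6.76% of all genes. DESeq2 called 7, which were the 8 of the blocked fit without Il6, and 7.08% of all genes.

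Several members were low in both samples numbered 3. Both samples numbered 3 lay at least 1.5-fold below the rest of their own group for 9 of the 52 tested members (17.3%), namely Il1a, Il1b, Il13ra2, Il2rg, Il6, Il21r, Il27ra, Socs3 and Lifr, against 4.63% of all genes. For number 1 there were 0 such members (1.43% of all genes), and for number 2 there were 0 (0.501% of all genes). Both samples numbered 3 were the lowest of the 6 for 13 members (25%), for 11.2% of all genes and for all 10 endothelial markers. The endothelial sums given above thus moved with these members. Their part in the members' values was not tested. With the mean log2 level of the endothelial markers as a covariate, an alternative added after the data were seen, 4 members passed, Il34 beside the 3 called without it. In that fit 661 of all genes passed, against 510 without the covariate.

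**Figure D3:**
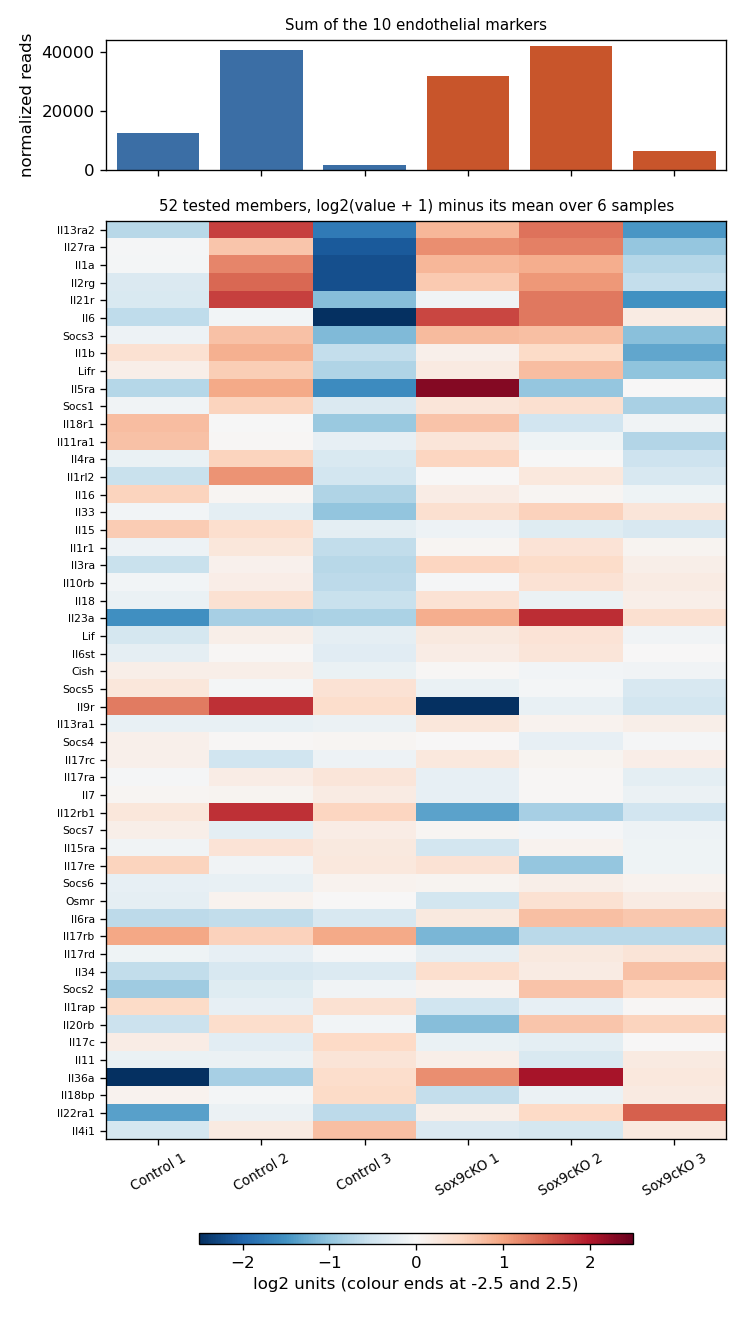
Upper panel, sum of the 10 endothelial markers in normalized reads for each of the 6 samples; lower panel, log2(value + 1) of each of the 52 tested members minus its mean over the 6 samples, as colour from blue (low) to red (high). The members at the top, such as Il13ra2, Il27ra and Il1a, are low in both samples numbered 3, where the endothelial sum is 1756 and 6557.

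Levels of different genes were compared per kilobase of exon, as the mean of normalized reads over the 6 samples divided by exon length (GENCODE M21). All 74 members had a length. Lif stood highest at 1901 per kilobase, followed by Il6st at 877 and Socs3 at 750.3. Il13ra1 (466), Lifr (335), Il1a (319), Il4ra (301), Osmr (254) and Socs2 (254) came next on the same scale. The spread of Socs3, Lifr, Il1a and Il4ra across samples was wider than the gaps to their neighbours, so the order of Il6st and Socs3 and that of the genes after them are not resolved.

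On the same scale Socs2, which passed with the block, went from 182 to 327. The 3 members called without the block and Il22ra1 were less abundant. Il23a went from 26.3 to 122 normalized reads per kilobase and Il22ra1 from 33.1 to 92.0. Il6ra was at 13.8 in Control and 30.4 in Sox9cKO, and Il17rb at 18.8 and 5.78, on the same scale. Thus RNA of Il6ra, the gene of the IL-6-binding chain, was at a small part of the level of Il6st RNA in both groups.

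**Figure D4:**
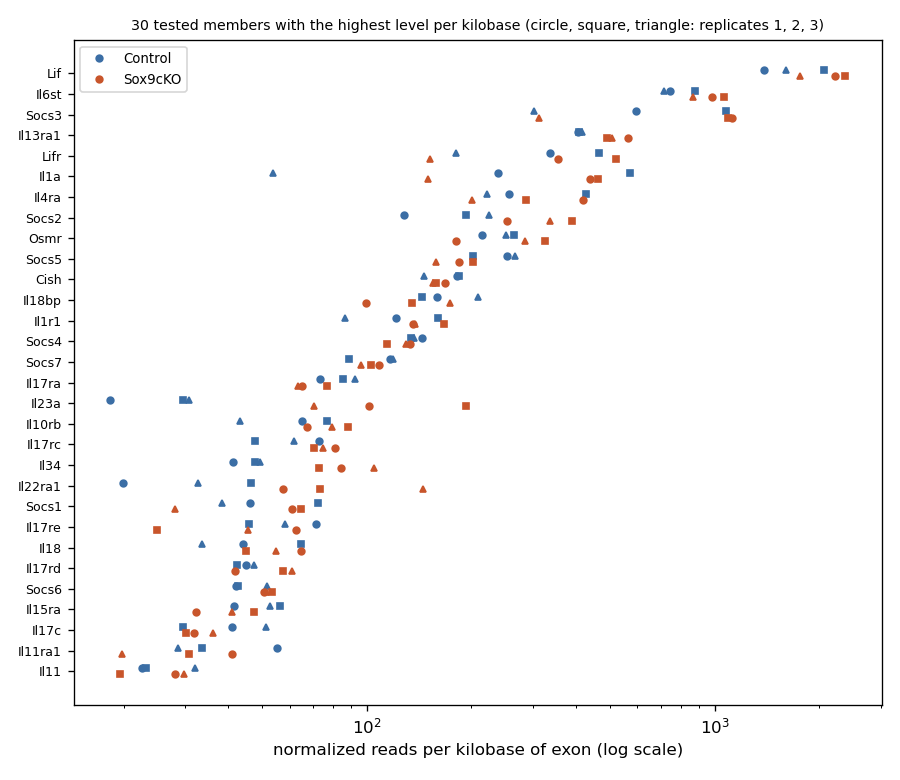
Normalized reads per kilobase of exon (horizontal log axis) of the 30 tested members with the highest mean level, in order of that mean, with 1 point for each of the 6 samples, coloured by group and shaped by replicate number. Lif and Il6st stand at the top, the samples numbered 3 (triangles) lie low for Socs3, Lifr and Il1a, and the Il23a and Il22ra1 points of the groups do not overlap.

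A further 22 members did not reach the filter and were not tested. Their totals over all samples ran from 10 reads (Il31) to 46 (Il10ra), and no sample held more than 18 reads of any of them. Il10ra, just under the filter, had a mean of 7.30 normalized reads, and Il9r, just above it, had 10.5. After Il10ra, the most reads belonged to Il1r2 (43), Il2rb (41), Il19 (40), Osm (34) and Il17d (34). Osm, the ligand of Osmr, was at 5.04, 11.1 and 6.91 in Control and 3.98, 4.73 and 1.13 in Sox9cKO. Its groups, like those of Il18rap and Il20, did not overlap, but these 3 genes had too few reads to be tested. Il10, a ligand that damps inflammation, was at 9.25, 9.28 and 1.15 in Control and 0.995, 1.89 and 1.13 in Sox9cKO.

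Other genes of the same pathways were taken from 6 lists, drawn up with earlier results of these data known, of which 63 genes were tested; 8 rose and 2 fell (15.9%, where 2.97% of all genes were called), and 16 passed with the replicate block, where 8.05% of all genes did. Because of how the lists were chosen, these shares are not evidence of an enrichment. Of the other gp130 ligands and receptors, 1 of 3 fell: Clcf1, a ligand of the CNTF receptor, from 2530, 2302 and 2226 in Control to 1608, 1497 and 1425 in Sox9cKO (log2 change -0.64, SE 0.11, adjusted p = 0.0277 by limma). Of the 11 JAK and STAT genes, 1 fell and 0 rose, with a median of -0.20. That gene was Stat4, a STAT downstream of IL-12, with 126, 113 and 159 normalized reads in Control and 33.8, 52.9 and 41.9 in Sox9cKO (-1.62, SE 0.25, adjusted p = 0.0187 by limma). Stat3, through which gp130 signals, passed with the block, lower (adjusted p of 0.0432 by limma). It was at 9604, 8464 and 7641 in Control and 7318, 6577 and 5003 in Sox9cKO. The 9 phosphatases, PIAS proteins and other brakes had 0 calls in limma with and without the block. An unadjusted p under 0.05 was found for 0 of them, and for 3047 of all 17153 genes tested.

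Among 13 adaptors of the IL-1 and IL-17 receptors, 1 rose and 0 fell, where 2.97% of all genes were called. Irak3, the IRAK that restrains IL-1 and Toll-like receptor signalling, went from 63.0, 80.7 and 56.5 in Control to 149, 172 and 161 in Sox9cKO (1.27, SE 0.20, adjusted p = 0.0211 by limma). With the block Irak2, a kinase of the active complex, passed as well (adjusted p of 0.0268 by limma). Of 14 tested receptors and ligands related to the type I and interferon receptors, 1 rose. This was Ghr, with 165, 188 and 137 in Control and 423, 272 and 461 in Sox9cKO (1.21, SE 0.24, adjusted p = 0.0455 by limma). The block brought 2 more past the threshold there, Ifnar1 higher and Csf3r lower.

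Genes known to respond to IL-6, IL-17 and IL-22 held most of the calls of the lists, with 6 of 13 tested higher and 0 lower, and a median of 0.49. Of all genes, 2.03% were called higher. This list too was drawn up with earlier results of these data known, so its share is not evidence of an enrichment. The 6 called genes were the acute-phase genes Hp, Fga, Fgb and Fgg, the lipopolysaccharide-binding protein gene Lbp and the iron-chelator gene Lcn2. Lcn2 had 1426, 1969 and 2490 normalized reads in Control and 8969, 7915 and 6028 in Sox9cKO (1.98, SE 0.23, adjusted p = 0.00699 by limma). Lbp had 525, 331 and 623 in Control and 2299, 1358 and 1452 in Sox9cKO (1.79, SE 0.29, adjusted p = 0.0216 by limma). Log2 changes were 6.46 for Hp, 3.00 for Fga, 3.62 for Fgb and 2.87 for Fgg. These 4 are also made in large amounts by hepatocytes, whose marker sums are given above. Of the 9 hepatocyte markers tested, 1 was called higher and 0 lower, with a median log2 change of 0.35. The part of hepatocytes in the rise of the 6 genes was not tested. The other targets did not move together: Nfkbiz (-0.20), Junb (-0.42) and Cebpd (-0.57) were negative and Cebpb (0.18), Bcl3 (0.19) and Timp1 (0.49) positive in log2 change, and none of these 6 passed. Pim1, a STAT target kinase, was at 0.44 and passed with the block (adjusted p = 0.0480 by limma). Of the 20 listed targets 18 were in the table, and 5 of these were below the filter and not tested. In Control and Sox9cKO, their means were 2.46 and 1.62 normalized reads for Saa1, 1.21 and 2.64 for Saa2 and 2.20 and 1.96 for Saa3. Those of Orm1 were 6.97 and 8.91, and those of Reg3g 7.08 and 3.41. When 1 sample at a time was left out, Lcn2, Hp, Fga, Fgb and Fgg passed in all 6 fits, Stat4 and Lbp in 3, and Clcf1, Irak3 and Ghr in 1.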

How the data were processed

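RNA from 3 Control and 3 Sox9cKO samples was extracted with a kit for few cells, depleted of ribosomal RNA and made into stranded libraries with molecular identifiers, per the labels' protocols. The submitters' processing notes name DESeq2 1.36.0 and GRCm39, without a role; the aligner, the counter and the use of the identifiers are not given in the sources used here. The values that the authors deposited are a normalized signal, namely each gene's count over 1 size factor per sample (0.868 to 1.19). Whole reads were recovered for 100% of values (tolerance 0.001 reads). No gene in the table had fewer than 10 reads in total, and 25301 of its 25302 rows had an Ensembl identifier.

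Values were analysed as log2(value + 1), with a pseudocount of 1 that understates changes of low genes. Genes with a mean of at least 10 were tested with limma 3.58.1 (intensity trend) in R 4.3.3, two-sided, with Benjamini-Hochberg adjustment over all genes and a threshold of 0.05. Nothing says that samples are separate animals, so p-values measure the spread between these samples. Replicate numbers 1 to 3 are given to both groups by the labels. Deviations from the group means of same-numbered samples correlated at 0.207, 0.472 and 0.542 across genes, so a fit with a block for this number is reported where it changes a call. edgeR 4.0.16 and DESeq2 1.42.0 were run on the recovered reads. limma was also rerun with TMM factors, with quantile normalization, with a pseudocount of 0.1 or 5, with no filter or a minimum mean of 50, without the trend, and 6 times without 1 sample. The code was tested on simulated data.

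The members, gene lists and cell type markers were chosen with earlier results of these data known. Genes were named by rule: members called with or without the block, the 15 most abundant, the 8 with the largest changes among those not called, members without overlap and a log2 change of at least 1, called genes of each list, their partners, and the 5 untested members with most reads; other genes were chosen after their values were seen. Promoters are from RefSeq (GRCm38.p6) and exon lengths from GENCODE M21 (GRCm38), by Ensembl identifier. The build of the counts is not stated as such, so coordinates belong to the promoter table alone. Not every gene of the lists that passed is reported here.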

Additional observations from a re-analysis of the deposited data

How the results depend on the processing

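Sox9, the counts of calls and each of the 52 tested members were recomputed under 19 other settings. Of 972 recomputed log2 changes of members, 881 kept their direction and their side of the threshold, 15 passed it newly, 20 no longer passed it and 56 changed sign, the last in 17 members of which 0 were called. The 3 called members kept their direction in all settings in which they were tested; with a minimum mean of 50, Il17rb was not tested and 2 members passed. With the replicate block, limma called 8 members, 1381 of all genes and 16 genes of the pathway lists, and edgeR called 8 members and 1160 of all genes; it changed no other call of a member. DESeq2 called 7 members and 1214 of all genes. Without 1 sample, fewer samples entered and the counts were 0 to 1 members, 199 to 387 of all genes and 5 to 8 genes of the lists, the members' median log2 change was -0.116 to 0.232, and Sox9 was at -0.927 to -0.883. The fewest of all genes, 199, were called without Control replicate 1. Without both samples numbered 3, Sox9 was at -0.909 (adjusted p = 0.097, limma, a model over all genes), and 0 members, 52 of all genes and 3 genes of the lists passed. With the endothelial level as a covariate the members' median was -0.0794; the cause was not tested. These last 2 settings were added after the data were seen.

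Changes of sign without 1 sample are given as the range over 6 fits on the log2 scale: Il11 (-0.125 to 0.177), Il13ra2 (-0.264 to 1.47), Il16 (-0.256 to 0.389), Il18r1 (-0.327 to 0.528), Il1a (-0.242 to 1.46), Il1b (-0.866 to 0.0768), Il1rl2 (-0.362 to 0.47), Il20rb (-0.204 to 0.677), Il21r (-0.882 to 0.638), Il2rg (-0.16 to 1.66), Il4ra (-0.272 to 0.273), Il5ra (-0.037 to 1.6), Lifr (-0.392 to 0.497), Osmr (-0.095 to 0.331), Socs1 (-0.287 to 0.311), Socs3 (-0.142 to 0.935) and Socs7 (-0.203 to 0.00954). Without both samples numbered 3, the sign changed for Il11 (0.0349), Il16 (-0.183), Il18r1 (-0.259), Il20rb (-0.139), Il4ra (0.0623), Lifr (0.118), Socs1 (0.116) and Socs7 (0.0558). With the endothelial covariate it changed for Il11 (0.121), Il13ra2 (-0.363), Il16 (-0.0876), Il18r1 (-0.0843), Il1a (-0.0746), Il2rg (-0.016) and Socs3 (-0.193). DESeq2 gave the opposite sign for Il16 (-0.0374), Il18r1 (-0.0105) and Lifr (0.0241), and edgeR for Il16 (-0.0415), Il18r1 (-0.0179) and Lifr (0.0166). Quantile normalization did so for Il16 (-0.024) and Il1rl2 (0.0199), and TMM factors for Il4ra (0.00159) and Lifr (0.00294). The cause of these changes of sign was not tested. Between 2 and 58 reads of Il6 and between 0 and 28 of Il9r were counted per sample.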
